A study of Drosophila melanogaster with 6 samples.

Results

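Loss of the transcription factor Grainy head (Grh) was examined in whole Drosophila melanogaster embryos at stage 16 by setting 2 arrays of a grh mutant (allele grhB37) against 2 arrays of wild type (strain w1118). These are 4 of the 6 arrays of the study. The other 2 arrays carried grh overexpression under the 69B driver, and served here only to share the estimate of the spread and to give each gene a value for a gain of grh. The members of the comparison were all rows that were not array controls and that reached a log2 value of at least 4 on 2 or more of the 6 arrays, which was 8632 of 17104 rows and included 7644 named genes. The labels name no further allele or agent, and do not say how mutant embryos were picked, whether the strains share a genetic background, or whether the replicates were separate collections. An effect of grh, of strain and of embryo collection therefore cannot be told apart, and the p-values measure the spread between these arrays, which may be technical.

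Grh is a DNA-binding activator and repressor of barrier epithelia. In the fly embryo it is known for building the cuticle, the layered coat of chitin, proteins and crosslinked catecholamines that the epidermis and trachea secrete, and for switching on repair genes around wounds. Chitin is polymerised from an activated amino sugar made by the hexosamine route, and the finished coat is hardened by quinones made from dopamine, itself derived from tyrosine.

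The grh transcript was measured in every array first. Its main probe set had log2 values of 9.05 and 9.02 in grh mutant embryos, 12.27 and 12.38 in grh overexpression embryos, and 7.36 and 7.45 in wild type embryos. Its level in the grh mutant arrays was thus 3.09 times that in wild type (adjusted p = 1.59e-10 by limma over all 8632 rows). A second probe set of grh was under 4 in the mutant arrays, at 3.52 and 3.54, and in the wild type arrays, at 3.28 and 3.21. How the grhB37 allele affects the transcript is not stated in the sources used here, so the level of grh does not check the mutant label, and every direction below rests on that label.

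Of the 8632 rows, 6979 (80.9%) passed an adjusted p of 0.05. Among them 3131 (36.3%) were higher and 3848 (44.6%) lower in the grh mutant, and in 7797 rows (90.3%) the mutant and wild type arrays did not overlap. Replicate arrays lay close together, with a median absolute difference of 0.0590 on the log2 scale in the mutant and 0.0697 in wild type, against 0.488 between the group means. A call alone therefore says little here, and counts at 2-fold or more are given beside it. Such calls numbered 1538 (17.8%), with 929 (10.8%) higher and 609 (7.06%) lower. The median log2 fold change over all rows was -0.07, and 204 rows reached the minimum through the mutant arrays alone, against 43 through the wild type arrays alone, so that the direction of those rows was set by the filter. A further 341 rows passed through the overexpression arrays alone, being under 4 in both other genotypes, and any change counted for them has no measured size. Many members of either kind are named beside the counts they enter.

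Changes in the mutant varied with gene span, the distance from the start to the end of a gene. Genes were put in 4 span classes of near-equal size. In the shortest class (267 to 1596 bases) the median log2 fold change was -0.30, with 23.4% of genes higher and 58.1% lower. In the longest class (6938 to 396036 bases) it was 0.27, with 56.5% higher and 25.3% lower. Across 7628 named genes with a span, Spearman's rho between span and change was 0.31 for the mutant and -0.01 for grh overexpression, given as a description since genes are not independent replicates. Spans came from the Release 6 plus ISO1 MT gene table. What links span to the change was not tested. List counts after centring each array within these classes, called span-centred below, are given for many of the lists that they move.

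**Figure D1:**
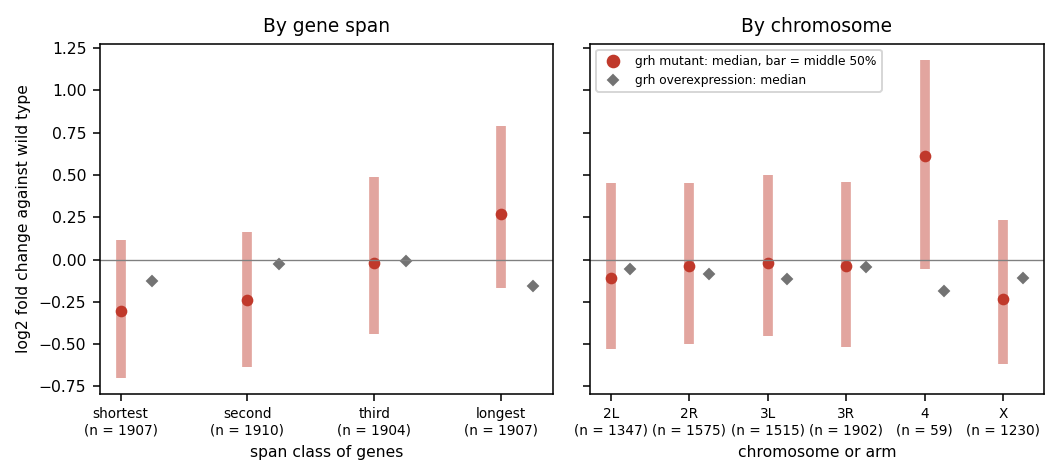
Median log2 fold change against wild type (red circles, grh mutant, with bars for the interquartile range; grey diamonds, grh overexpression) by span class (left) and by chromosome or arm (right). The mutant medians climb with span to 0.27 in the longest class, and chromosome 4 stands highest at 0.61.

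Chromosome 4, a small chromosome that is largely heterochromatic, stood above the others, with a median of 0.61 over 59 genes and 33.9% of them called at least 2-fold higher. Its 41 genes in the longest class had a median of 0.82, against 0.27 for all genes of that class. The X chromosome stood lowest, with a median of -0.23 over 1230 genes, and the large autosomal arms lay between -0.11 and -0.02. Within span classes the X medians were -0.45, -0.43, -0.18 and 0.14 from shortest to longest, each below the median of all genes of that class. Added control RNAs also differed, with 9 hybridisation controls averaging 8.43 and 8.24 in the mutant arrays, against 9.20 and 9.14 in the wild type arrays. The 3' probe set of Act5C exceeded its 5' probe set by 2.20 ± 0.07 in the mutant and 2.74 ± 0.06 in wild type (log2 values, SD, n = 2 arrays each), while the same difference for eIF4A was 1.04 ± 0.14 in the mutant and 1.08 ± 0.09 in wild type. The part of these technical values in any result was not tested.

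Genes were read in 49 lists by function. Each list count below stands against 36.3% of all rows called higher and 44.6% lower, 10.8% and 7.06% by at least 2-fold. The lowest fitted medians in the mutant were those of the hexosamine route, tyrosine and tryptophan breakdown, heat shock, the yellow family, and DNA replication and mitosis, and the highest those of maltases, neurons, segmentation factors and chitinases. Dim genes move part of this order, since at their bound the medians were -0.64 for tyrosine and tryptophan breakdown, -0.41 for the yellow family, -0.36 for DNA replication and mitosis, 0.28 for maltases and 0.43 for segmentation factors, but unmoved at -0.83 for heat shock, 0.81 for neurons and 0.66 for chitinases. Cuticle protein families, Osiris proteins and junction genes had medians between -0.04 and 0.26, with single members far out on either side. Embryos were measured whole, so fewer cells of a type and less RNA per cell cannot be told apart in anything that follows.

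**Figure D2:**
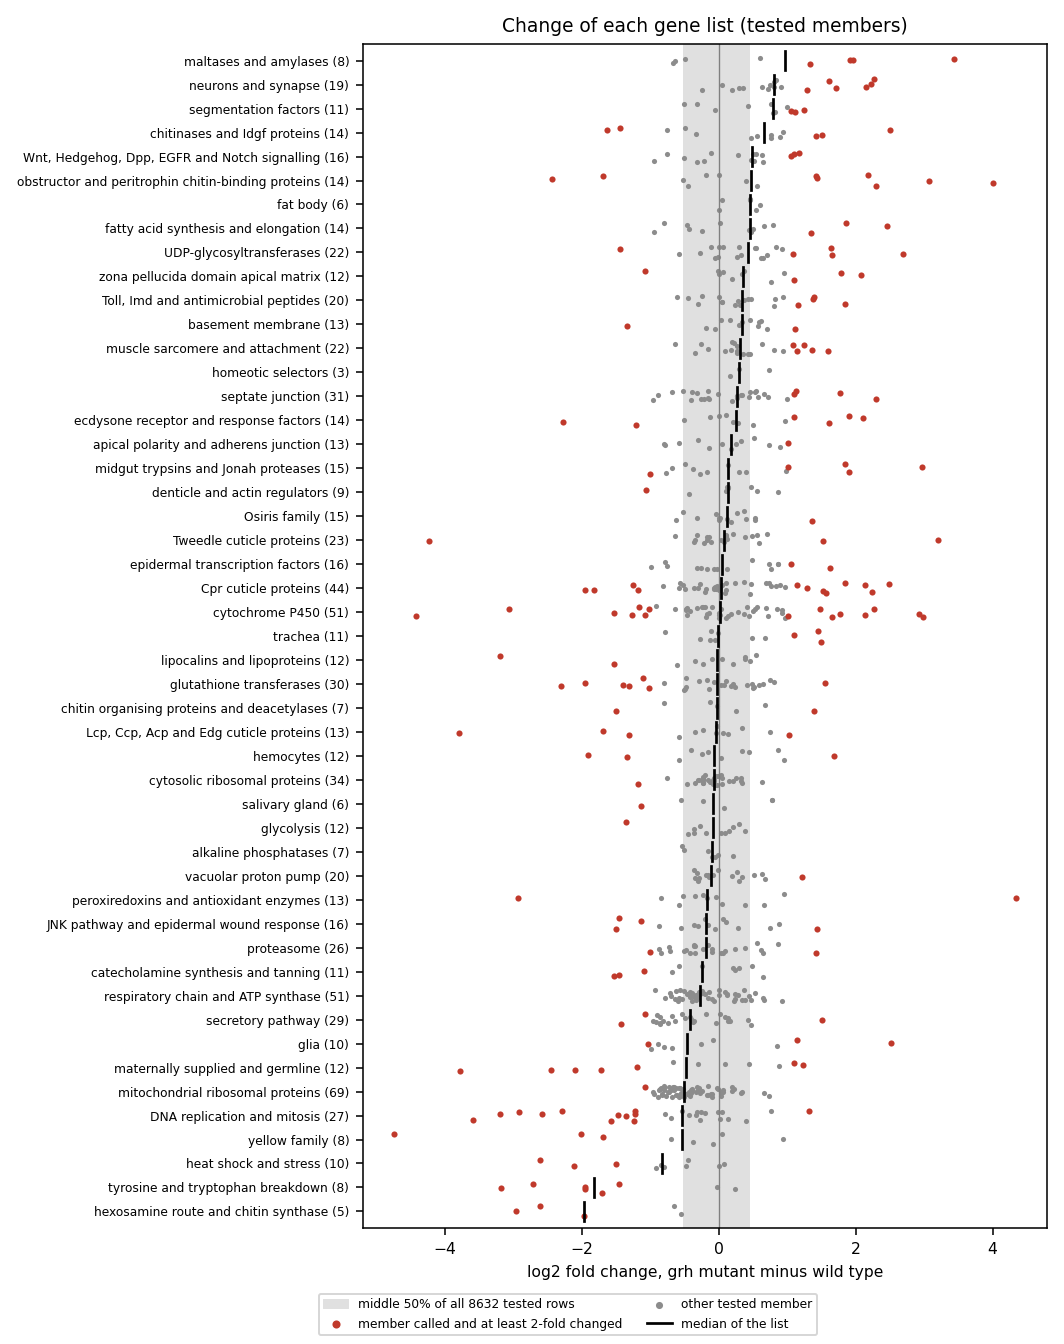
Log2 fold change, grh mutant minus wild type, of every tested member of the 49 gene lists (points; red where called and at least 2-fold changed), with fitted list medians as black bars and the interquartile range of all rows as a grey band. Lists run from the highest median at the top, maltases and amylases at 0.97, to the lowest, hexosamine route and chitin synthase at -1.96.

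The hexosamine route and chitin synthase were lower in the mutant. By the brightest probe set of each gene, 5 of 5 tested members (6 on the array) fell, 3 of them by at least 2-fold, with a median log2 fold change of -1.96 against -0.07 for all rows. One of the 5, Gfat1, is unsettled, as given below. Gnpnat, the acetyltransferase of the route, had log2 values of 6.42 and 6.28 in the mutant, against 9.01 and 8.91 in wild type. It was 6.12-fold lower (limma, adjusted p = 1.36e-11), with no overlap between the groups, and averaged 10.93 in grh overexpression, above wild type. mmy, which makes the UDP-activated sugar used by chitin synthase, had 8.66 and 8.75 in the mutant, against 10.67 and 10.67 in wild type. That is 3.90-fold lower, while its mean in grh overexpression was 10.13, below wild type. Gfat1, the entry enzyme of the route, had 8.60 and 8.63 in the mutant, against 11.60 and 11.56 in wild type (7.80-fold lower). Its dimmer probe set went the other way, with 5.12 and 5.08 in the mutant, against 3.26 and 3.20 in wild type, so the direction of the whole gene is not settled. Its paralog Gfat2 fell by 0.66 on the log2 scale. The embryonic chitin synthase kkv had 8.74 and 8.74 in the mutant, against 9.30 and 9.29 in wild type, a small fall of 1.47-fold that did not exceed a log2 change of 0.5 in a test against that size.

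Proteins that order the chitin did not move together. Of 7 tested members (8 on the array), 3 rose and 3 fell. knk, needed to organise the chitin fibres, had 5.06 and 5.01 in the mutant, against 6.51 and 6.56 in wild type (2.83-fold lower), and averaged 8.77 in grh overexpression. The chitin deacetylase Cda5 ran opposite, with 9.14 and 9.21 in the mutant, against 7.75 and 7.81 in wild type (2.63-fold higher). Cda4 fell by 0.80 on the log2 scale and ChLD3 was higher by 0.67. The tracheal deacetylases serp and verm and the chitin-binding Gasp differed from wild type by 0.25, -0.03 and -0.13 on the log2 scale. verm did not pass, the call of Gasp was lost without mutant replicate 1 or wild type replicate 2, and serp turned to -0.062 when span-centred.

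Chitinases and Idgf proteins were more often higher than lower, while chitin-binding proteins of other kinds went both ways. Among 14 tested chitinases and Idgf proteins (16 on the array), 9 rose, 3 of them by at least 2-fold, and 5 fell, with a median of 0.66 (9 and 3 span-centred). Cht5, a moulting chitinase, had 7.48 and 7.58 in the mutant, against 5.09 and 4.97 in wild type (5.66-fold higher). Idgf1 and Idgf3, chitinase-like growth factors without catalytic activity, rose 2.84-fold and 2.67-fold. Cht2 was 3.12-fold lower, with no overlap of the arrays, and averaged 10.77 in grh overexpression. Of 14 tested obstructor, peritrophin and mucin genes (30 on the array), 8 rose and 5 fell. Of the risers, 2 passed the minimum only through the mutant arrays, so the filter set their direction. The mucins Muc26B (16.1-fold), Muc55B (4.93-fold) and Muc18B (4.51-fold) were higher, as were Muc91C (2.67-fold) and, through the mutant arrays alone, Mur29B and Muc11A. Muc26B had 8.68 and 8.77 in the mutant, against 4.63 and 4.80 in wild type. The obstructors obst-B (5.41-fold) and obst-E (3.21-fold), structural chitin binders of the cuticle, were lower, obst-B with 7.47 and 7.46 in the mutant, against 9.95 and 9.85 in wild type. obst-H was 1.47-fold higher.

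Enzymes that make and use dopamine for tanning were split, with the larger changes downward. Of 11 tested members (15 on the array), 6 fell, 3 by at least 2-fold, and 5 rose, none by 2-fold. Span-centred, 5 fell and 1 rose. Vmat, counted higher at 0.49 on the log2 scale, is a transporter and not an enzyme, and its direction is not settled. A dimmer probe set of Vmat rose by 0.62, and another had 5.88 and 5.48 in the mutant, against 6.12 and 6.33 in wild type. Ddc, the decarboxylase that makes dopamine, had 8.78 and 8.77 in the mutant, against 10.25 and 10.21 in wild type (2.74-fold lower, limma adjusted p = 7.29e-11). Its paralog amd, another enzyme of catecholamine metabolism, had 8.10 and 8.12 in the mutant, against 9.66 and 9.62 in wild type (2.89-fold lower), and averaged 11.17 in grh overexpression. stw, the laccase that oxidises catechols in the cuticle, had 9.02 and 9.19 in the mutant, against 10.18 and 10.21 in wild type (2.13-fold lower). In all 3 genes the groups were far apart relative to the replicates. ple, the tyrosine hydroxylase ahead of Ddc, lay at 2.38 on all 6 arrays, under the minimum of 4, and was not tested.

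The yellow family, secreted proteins that include melanin-related enzymes, had 5 of 8 tested members lower (13 on the array), 3 by at least 2-fold, and 1 higher. These counts were the same when span-centred. yellow-d2 was at 2.50 and 2.50 in the mutant, under the minimum of 4, against 7.36 and 7.12 in wild type, at least 9.46-fold lower, and averaged 10.09 in grh overexpression. yellow-d had 4.92 and 4.77 in the mutant, against 6.58 and 6.49 in wild type (3.23-fold lower), yellow-e2 was at least 1.35-fold lower, and yellow-b and yellow-h fell by 0.70 and 0.38 on the log2 scale. yellow itself (y), needed for black pigment, ran opposite at 9.88 and 9.83 in the mutant, against 8.93 and 8.90 in wild type, and averaged 6.63 in grh overexpression. yellow-e and yellow-f2 did not pass, with differences of 0.05 and -0.09.

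Enzymes that break down tyrosine and tryptophan were lower as a group. Of 8 tested members (9 on the array), 6 fell, all by at least 2-fold as fitted, and 1 rose, with a fitted median of -1.83. Several were under 4 in the mutant, and with those at their bound the median was -0.64. KFase, the kynurenine formamidase of tryptophan breakdown, had 3.77 and 3.97 in the mutant, against 7.09 and 7.02 in wild type, at least 8.29-fold lower (limma adjusted p = 2.09e-11). The remaining fallers lie along one chain from tyrosine to fumarate. Tat, the aminotransferase that opens it, was at least 1.13-fold lower, and Hpd, the dioxygenase after it, had 2.36 and 2.32 in the mutant, against 4.96 and 5.15 in wild type, at least 2.07-fold lower. hgo, which opens the ring of homogentisate, was at least 1.17-fold lower and the isomerase GstZ2 at least 2.73-fold lower. Faa, the last step, had 4.70 and 4.91 in the mutant, against 6.55 and 6.46 in wild type (3.25-fold lower). Hpd averaged 12.58 and hgo 10.44 in grh overexpression, far above both other genotypes. Kyat did not pass, at -0.03, and GstZ1 was 0.23 higher, a call that was lost without mutant replicate 1 or wild type replicate 2.

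**Figure D3:**
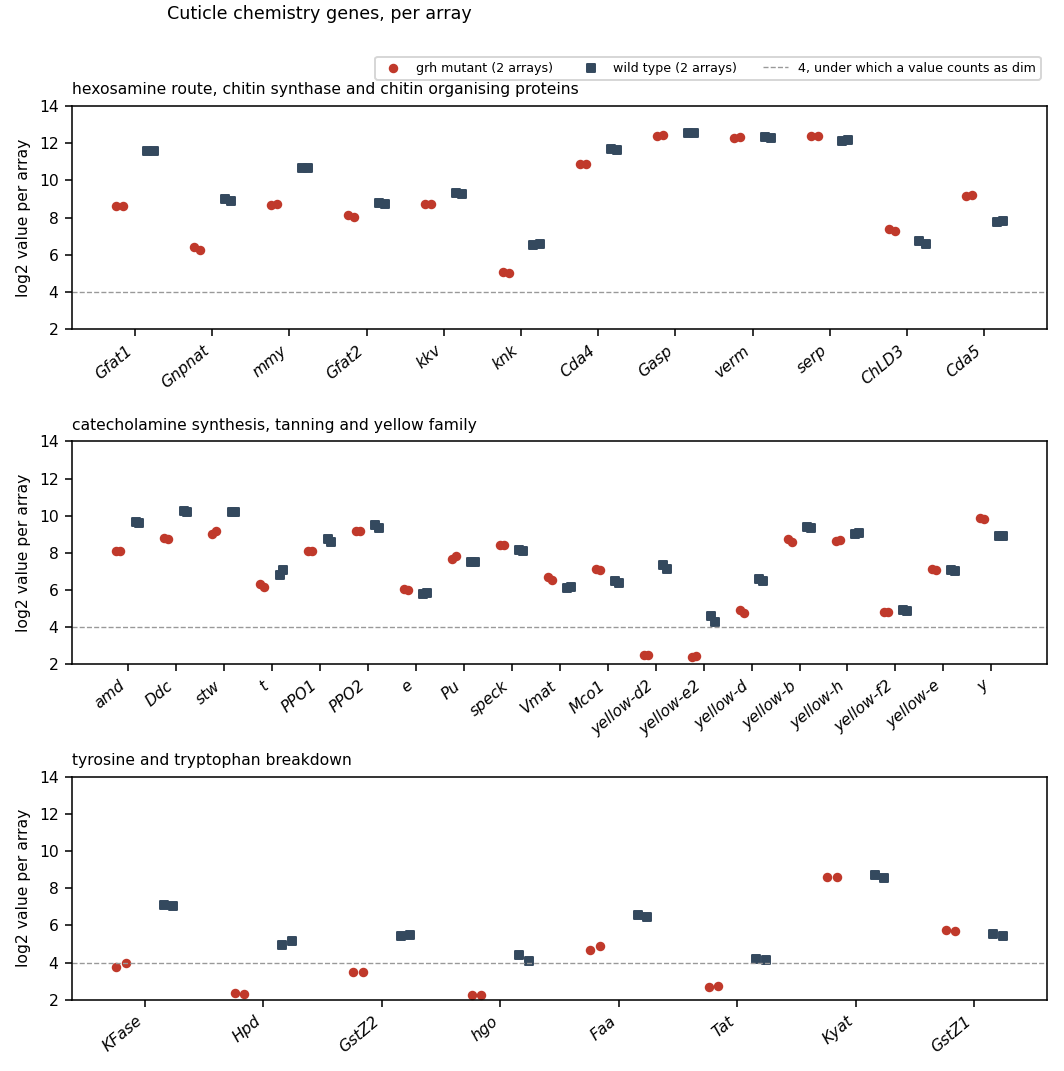
Log2 value of each array for genes of chitin synthesis and order (top), tanning and the yellow family (middle), and tyrosine and tryptophan breakdown (bottom), with grh mutant as red circles and wild type as dark squares. Gnpnat, mmy, Ddc, amd and the chain from Tat to Faa lie lower in both mutant arrays, and the dashed line marks 4, under which a value counts as dim.

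Structural cuticle proteins did not fall as a class. Of 44 tested Cpr genes (66 on the array), which carry the chitin-binding domain of most cuticle proteins, 18 rose and 13 fell, with 8 and 4 of these by at least 2-fold. Cpr49Ac and Cpr76Ba among the 8 passed only through the mutant arrays, Cpr65Au among the 4 only through the wild type arrays, and Cpr47Ec among the 13 was under 4 in both genotypes. Cpr78Ca, also among the 8, was under 4 in wild type and at least 1.14-fold higher. Of 23 tested Tweedle genes (24 on the array), proteins of the larval cuticle that shape the body, 10 rose and 9 fell, Twdlalpha rising only through the mutant arrays. Both families are short genes, with 27 of the 44 Cpr genes and 19 of the 23 Tweedle genes in the shortest class, and their span-centred counts were 28 higher and 9 lower for Cpr, 12 and 2 of them by 2-fold, and 17 higher and 3 lower for Tweedle. Members within a family are alike in sequence, and whether their probe sets read one copy each was not tested.

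A few single cuticle protein genes changed widely. TwdlQ had 6.03 and 5.91 in the mutant, against 10.26 and 10.14 in wild type, 18.7-fold lower (limma adjusted p = 2.2e-12), and averaged 6.66 in grh overexpression, also below wild type. TwdlH ran opposite at 9.53 and 9.50 in the mutant, against 6.36 and 6.25 in wild type (9.24-fold higher). Lcp65Ad, a larval cuticle protein, was at 3.22 and 3.36 in the mutant, against 7.13 and 7.05 in wild type, at least 8.51-fold lower. Its cluster neighbours split, with Acp65Aa 3.23-fold lower and Lcp65Af 1.68-fold higher. Cpr11A had 10.55 and 10.54 in the mutant, against 8.05 and 8.07 in wild type (5.58-fold higher), and Cpr49Ag was 3.60-fold higher. Cpr67Fa1 had 7.92 and 7.98 in the mutant, against 9.90 and 9.90 in wild type (3.87-fold lower). Among the 13 tested Lcp, Ccp, Acp and Edg genes (14 on the array), 3 rose and 6 fell, against 7 and 4 when span-centred, and Lcp65Aa among the 6 passed only through the wild type arrays.

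**Figure D4:**
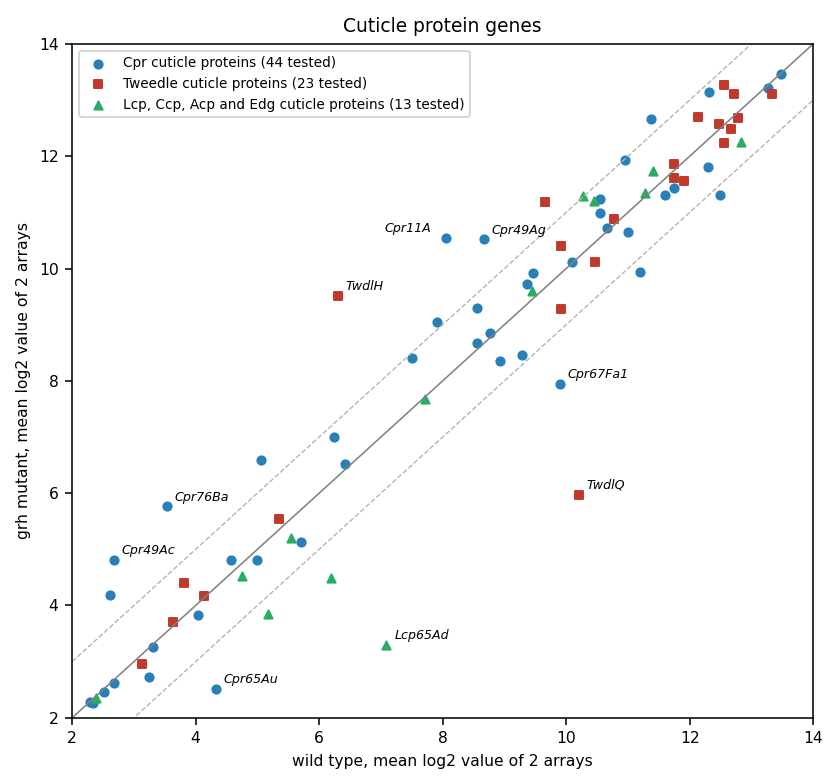
Mean log2 value in grh mutant (vertical axis) against wild type (horizontal axis) for each tested Cpr, Tweedle, and Lcp, Ccp, Acp or Edg gene, with the diagonal as equality and dashed lines at 2-fold. Most genes lie between the dashed lines, with TwdlQ and Lcp65Ad far below them and TwdlH and Cpr11A far above.

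Genes of the apical matrix and of epithelial junctions were more often called higher than lower, though not in every list when span-centred. The list of zona pellucida domain proteins, which anchor the cuticle to the cell surface, also took in trn and cv-2, which lack that domain. Of its 12 tested genes 8 rose, trn, cv-2 and dy (under 4 in both genotypes) among them, and 1 fell. Span-centred, 6 rose and 4 fell. The 3 that rose by at least 2-fold were tyn, with 5.50 and 5.50 in the mutant, against 3.20 and 3.64 in wild type, zye (3.45-fold) and pio (2.14-fold), while mey was 2.12-fold lower. Septate junctions seal the epidermis, and of their 31 tested genes 18 rose and 12 fell, with 4 at least 2-fold higher and 0 at least 2-fold lower (1 without mutant replicate 1), against 10.8% and 7.06% of all rows. Those 4 were nrm (4.91-fold), dlg1 (2.19-fold), hoka (2.15-fold) and bark, higher by 1.77 on the log2 scale. nrm had 7.41 and 7.62 in the mutant, against 5.18 and 5.26 in wild type. Counts of the septate junction list were 17 higher and 10 lower when span-centred. Among 13 apical polarity and adherens junction genes, 7 rose and 5 fell (3 without mutant replicate 1 or wild type replicate 2). Span-centred, 5 rose and 5 fell, 1 of the fallers by at least 2-fold, with a median of 0.018. Without that centring only crb, the apical determinant Crumbs, reached 2-fold, at 8.33 and 8.29 in the mutant, against 7.29 and 7.30 in wild type. It stayed under 2-fold after quantile normalization, without mutant replicate 1 and when span-centred. shg, the fly E-cadherin, was 1.26-fold higher. scrib, a basolateral septate junction gene, had probe sets in both directions. It is counted among the 18 risers by its brightest probe set, and its direction is not settled.

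The actin regulators of denticles, the hooks that the ventral cuticle forms, showed 4 higher and 2 lower of 9 tested, and 3 higher and 4 lower when span-centred. The bundling protein sn (fascin) had 7.42 and 7.29 in the mutant, against 8.38 and 8.45 in wild type (2.09-fold lower), and averaged 9.54 in grh overexpression. It fell short of 2-fold without mutant replicate 2. ovo, the master regulator of denticles, did not pass, at 0.12. In the Osiris family, membrane proteins switched on during cuticle secretion, 8 of 15 tested genes rose and 3 fell (23 on the array), against 10 and 4 when span-centred, and only Osi7 reached 2-fold, with 7.18 and 7.14 in the mutant, against 5.86 and 5.75 in wild type. Basement membrane genes counted 9 higher and 2 lower of 13, with a median of 0.33, but 6 higher and 4 lower with a median of 0.02 when span-centred. Of these, the laminin chain LanB2 was 2.17-fold higher and the crosslinking peroxidase Pxn 2.53-fold lower.

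Regulators gave a mixed picture. Of 16 tested epidermal transcription factors, grh among them, 7 rose and 5 fell (7 and 8 span-centred), and only grh and odd reached 2-fold, both upward (1 further gene reached it downward without mutant replicate 2 or wild type replicate 1). vvl, a tracheal and epidermal POU factor, was higher by 0.49 on the log2 scale at its brighter probe set, with 8.15 and 8.44 in the mutant, against 7.76 and 7.85 in wild type, and its other probe set stood at 6.67 and 6.57 in the mutant, against 5.17 and 5.26 in wild type. Segmentation factors, which pattern the early embryo, had 8 of 11 tested members higher and 2 lower, with hry (2.17-fold), odd (2.08-fold) and Kr (1.99-fold) among them. Of the 8, slp2 and hkb passed only through the mutant arrays, slp2 at least 1.05-fold and hkb at least 1.33-fold higher. Of 11 tracheal genes, 5 rose and 3 fell (5 and 5 span-centred), and the 3 at 2-fold were esg (2.83-fold), knrl (2.73-fold) and pio, all higher. btl, the receptor that marks tracheal cells, did not pass, at -0.12. In the JNK and wound list, 8 of 16 fell and 4 rose (10 and 3 span-centred), against 44.6% and 36.3% of all rows. Pvf3 rose only through the mutant arrays. Gadd45 (2.83-fold lower) and the tumour necrosis factor receptor grnd (at least 1.94-fold lower) fell together with Ddc, which is counted in both lists, while puc, the feedback phosphatase of JNK, was 2.71-fold higher, with 8.86 and 8.87 in the mutant, against 7.49 and 7.37 in wild type. Without mutant replicate 2, a further gene of that list passed 2-fold upward.

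Most cell division genes tested were lower in the mutant. Of 27 tested replication and mitosis genes (33 on the array), 20 fell and 3 rose, with 11 lower and 1 higher by at least 2-fold. Among all rows 44.6% fell, and 7.06% by at least 2-fold. The fitted median was -0.54, or -0.36 with dim genes at their bound, and span-centred 18 fell and 4 rose. CycB, a mitotic cyclin, had 5.33 and 5.42 in the mutant, against 9.02 and 8.91 in wild type, 12.0-fold lower (limma adjusted p = 1.33e-12), and averaged 10.89 in grh overexpression. CycB3 had 5.32 and 5.22 in the mutant, against 8.47 and 8.46 in wild type (9.17-fold lower). pim (securin) was at least 5.37-fold lower, the cytokinesis protein tum at least 6.82-fold lower, and fzy, the activator of the anaphase-promoting complex, 4.91-fold lower. Licensing factors of replication fell less, with dup 2.99-fold and Cdc6 2.56-fold lower. The 3 risers were barr, a condensin subunit, 2.50-fold higher, with 5.42 and 5.34 in the mutant, against 4.10 and 4.03 in wild type, fzr, which ends cell cycles by destroying cyclins, higher by 0.77 on the log2 scale, and PCNA, the sliding clamp of replication, higher by 0.40. Mcm2, SMC2, RnrL and Dp did not pass, with differences of -0.0048, 0.017, 0.049 and 0.13. SMC2, and thr among the fallers, were under 4 in both genotypes, so their changes have no measured size.

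Transcripts known to be loaded into the egg by the mother moved in both directions. Of 12 tested members (22 on the array), 7 fell and 4 rose, against 44.6% and 36.3% of all rows. At least 2-fold lower were 5 and higher 2, against 7.06% and 10.8% of all rows. bcd, the maternal determinant of the head, was at 2.53 and 2.41 in the mutant, against 6.27 and 6.22 in wild type, at least 4.75-fold lower, and averaged 8.35 in grh overexpression. plu (at least 2.03-fold), swa (at least 1.48-fold), nanos (at least 2.09-fold) and smg (3.30-fold) were also lower. dhd, a germline thioredoxin counted with the antioxidant enzymes, had 4.03 and 3.87 in the mutant, against 6.90 and 6.86 in wild type (7.61-fold lower). stau and tud, maternal genes that are also expressed later, were 2.35-fold and 2.15-fold higher. When span-centred, 0 genes of the list were higher by 2-fold and 5 were lower, and spn-E, also counted higher, was under 4 in both genotypes. Whether the embryo collections differed in age or in unfertilised eggs was not tested.

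Heat shock genes were lower. Of 10 tested (12 on the array), 8 fell, 3 by at least 2-fold, and 0 rose, with a median of -0.83. The span-centred counts were 8 lower and 1 higher. Among all rows 44.6% fell, and 7.06% by at least 2-fold. Hsp68, an inducible chaperone, had 6.12 and 5.99 in the mutant, against 8.67 and 8.67 in wild type (6.12-fold lower), and averaged 5.24 in grh overexpression. The small chaperone Hsp26 had 8.26 and 8.19 in the mutant, against 10.40 and 10.28 in wild type (4.33-fold lower), and averaged 12.64 in grh overexpression. Hsp27 was 2.83-fold lower and Hsf, the activator of these genes, 1.88-fold lower. The endoplasmic reticulum chaperone Hsc70-3 did not pass, at 0.07.

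Neuronal and muscle genes were higher. Of 19 tested neuronal and synaptic genes (20 on the array), 17 rose and 1 fell (0 without mutant replicate 1 or wild type replicate 2). At least 2-fold higher were 6, and the median was 0.81, while of all rows 36.3% were higher and 10.8% by 2-fold. All 19 lie in the longest span class, and span-centred 14 rose and 2 fell, with a median of 0.50. cac, the presynaptic calcium channel, had 7.05 and 6.95 in the mutant, against 4.74 and 4.71 in wild type (4.84-fold higher, limma adjusted p = 4.34e-09). The axonal microtubule protein futsch was at least 2.57-fold higher, Frq1, a calcium sensor of synapses, 4.46-fold higher, and Dscam1, an axon guidance receptor, 3.27-fold higher. The active zone protein brp passed the minimum only through the mutant arrays, with 5.68 and 5.52, against 3.98 and 3.99 in wild type. Averaged over the probe sets of each gene, 3 rather than 6 neuronal genes reached 2-fold.

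Muscle genes counted 17 higher and 4 lower of 22 tested, 5 of them at least 2-fold higher, with a median of 0.31. Shares of all rows were 36.3% higher, 44.6% lower and 10.8% at least 2-fold higher. Span-centred, 13 rose and 7 fell, with 2 at 2-fold. The giant sarcomere proteins led, sls with 10.06 and 10.22 in the mutant, against 8.46 and 8.62 in wild type (3.03-fold higher), and bt with 12.54 and 12.59 in the mutant, against 11.23 and 11.17 in wild type (2.57-fold higher). The attachment proteins kon (2.38-fold) and Tsp (2.21-fold) and the signalling giant Obsc (2.11-fold) followed. Mlp84B, a short Z-disc gene, fell by 0.64 on the log2 scale.

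Other tissues did not move as one. Among 10 tested genes of the glial list, 3 rose and 6 fell, 2 and 1 of them by at least 2-fold (1 and 2 span-centred). The 1 lower by 2-fold was mdy (2.04-fold), an acyltransferase of lipid synthesis and not a glial marker. repo, the general glial marker, did not pass, at -0.08. moody, a receptor of the blood-brain barrier, was 5.73-fold higher with 8.82 and 8.82 in the mutant, against 6.26 and 6.33 in wild type, and the transporter of the same barrier Mdr65 was higher by 0.85 on the log2 scale, whereas wrapper (1.99-fold) and alrm (1.75-fold) were lower. Of 12 hemocyte genes 5 rose and 5 fell (3 and 4 span-centred), the phagocytic receptor NimC1 at least 2.95-fold lower and the clotting protein Hml higher with 4.25 and 4.08 in the mutant, the arrays through which alone it passed. Fat body genes had 4 of 6 higher (5 higher and 1 lower span-centred), none by 2-fold, and Fbp2 passed only through the overexpression arrays. Among salivary gland genes 2 of 6 rose and 3 fell, with the prolyl hydroxylase PH4alphaSG1 2.20-fold lower and the selector fkh 1.71-fold higher.

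**Figure D5:**
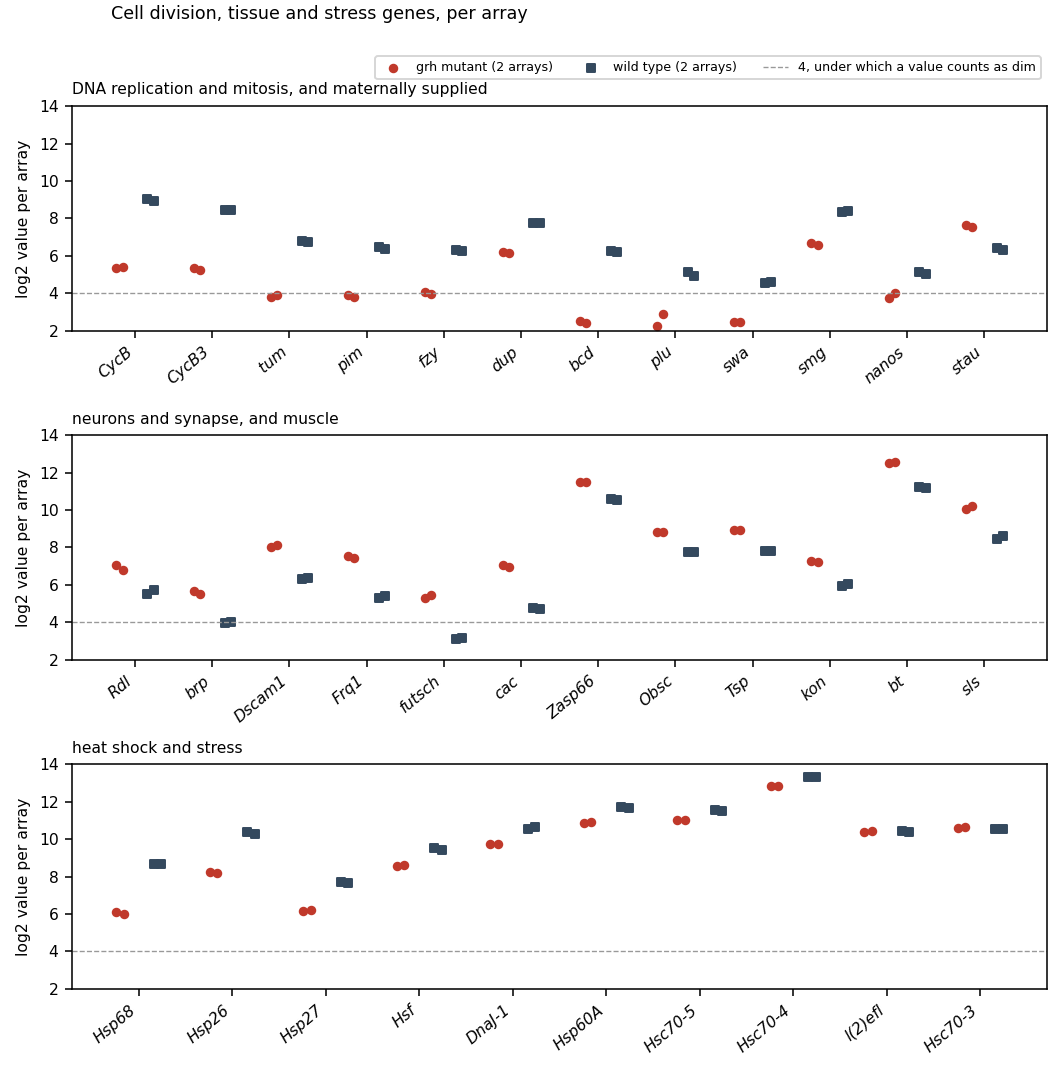
Log2 value of each array for cell division and maternal genes (top), neuronal and muscle genes (middle) and heat shock genes (bottom), with grh mutant as red circles and wild type as dark squares. The mutant arrays lie lower for CycB, bcd and Hsp68 and higher for cac and sls, and replicates of one genotype nearly coincide.

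Digestive genes rose in part. Of 8 tested maltases and amylases (10 on the array), 5 rose, 4 by at least 2-fold as fitted, and 3 fell. Among the 4, Mal-A8 was under 4 in both genotypes, and Mal-A6 was under 4 in wild type and at least 1.47-fold higher. Mal-B2 among the 3 fallers passed only through the wild type arrays. The fitted median was 0.97, or 0.28 with dim genes at their bound. Mal-A3 had 10.31 and 10.29 in the mutant, against 6.91 and 6.82 in wild type (10.8-fold higher), and averaged 10.66 in grh overexpression, also above wild type. Mal-A1 was 3.76-fold higher, and Mal-A2 and Mal-A4 were 1.59-fold and 1.56-fold lower. Among 15 tested trypsins and Jonah proteases (23 on the array), 8 rose and 7 fell, and span-centred 9 rose and 3 fell. Jon65Aiii (3.72-fold) and alphaTry (3.59-fold) were higher, betaTry and epsilonTry passed only through the mutant arrays, and Jon44E was lower, with 4.83 and 4.75 in the mutant, against 5.85 and 5.74 in wild type, a fold that dropped under 2 without mutant replicate 2 or wild type replicate 1.

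Lipid and detoxification enzymes held some of the widest changes of single genes. Of 14 tested genes of fatty acid synthesis and elongation, 8 rose and 5 fell. The elongases sit, with 9.55 and 9.55 in the mutant, against 7.17 and 7.02 in wild type (5.49-fold higher), and bond (3.61-fold higher) led with the fatty acid synthase FASN1 (2.54-fold higher). The cytochrome P450 list also took in the cyclophilins Cyp1 and Cyp40, which are not P450 enzymes, called at -0.32 and 0.50 on the log2 scale. With these counted, 22 of its 51 tested genes rose and 19 fell (83 on the array), 8 and 7 of them by at least 2-fold. Span-centred, 27 rose and 16 fell, 12 and 5 by 2-fold. Of those at 2-fold, Cyp6a16, Cyp6a17 and Cyp4p1 were under 4 in both genotypes, and Cyp9b1 and Cyp4p3 passed only through the mutant arrays, as did the riser Cyp6a18. Cyp4p2 was at 2.42 and 2.27 in the mutant, against 6.72 and 6.83 in wild type, at least 6.84-fold lower, and Cyp4e2 ran opposite, with 7.75 and 7.76 in the mutant, against 4.78 and 4.89 in wild type (7.56-fold higher). UDP-glycosyltransferases had 13 of 22 higher and 3 lower (35 on the array), and 16 and 2 when span-centred, Ugt35E2 and Ugt302E1 rising only through the mutant arrays. Of 30 glutathione transferases (34 on the array), 12 rose and 13 fell, with 1 higher and 6 lower by at least 2-fold, and span-centred 18 rose and 8 fell, with 3 and 3 at 2-fold. GstE4 among the 6 passed only through the wild type arrays, GstD5 among them was at least 1.09-fold lower, GstD8 rose only through the mutant arrays, and GstD11 was under 4 in both genotypes.

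Prx6c, a peroxiredoxin that removes peroxides, had one of the widest rises with both genotypes measured, at 12.68 and 12.75 in the mutant, against 8.21 and 8.53 in wild type (20.3-fold higher, limma adjusted p = 3.12e-12). It averaged 11.96 in grh overexpression. The other 12 tested antioxidant genes did not follow it, with 3 higher, Keap1 only through the mutant arrays, and 7 lower. The lipocalins NLaz and GLaz, carriers of small lipids, were lower. NLaz had 6.11 and 6.01 in the mutant, against 9.29 and 9.23 in wild type (9.17-fold lower), and GLaz was 2.89-fold lower. In grh overexpression NLaz averaged 4.80 and GLaz 6.29, also below wild type.

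Immune genes were mostly higher, with 13 of 20 tested Toll, Imd and antimicrobial peptide genes up (26 on the array), 4 by at least 2-fold, and 4 lower (2 span-centred), of which Mtk and PGRP-SB1 were under 4 in both genotypes. Shares of all rows were 36.3% higher, 10.8% at least 2-fold higher and 44.6% lower. Drsl5, an antifungal-like peptide, had 10.60 and 10.58 in the mutant, against 8.82 and 8.68 in wild type (3.58-fold higher), and the receptor PGRP-LE, the ligand spz and the factor Rel were 2.61-fold, 2.24-fold and 1.92-fold higher. In the ecdysone list, 8 of 14 tested genes rose and 3 fell (22 on the array), and 8 and 5 when span-centred. The receptors and factors Eip78C (3.73-fold) and br (2.14-fold) were higher, while MsrA, an ecdysone-induced reductase, was 4.83-fold lower, with 5.90 and 5.72 in the mutant, against 8.16 and 8.01 in wild type, and averaged 11.83 in grh overexpression. ImpE1 and the response factor ftz-f1 had probe sets in both directions, ftz-f1 at -0.51 for the brighter and 1.09 for the other. Counts use the brightest probe set, and neither direction is settled.

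General cell functions changed by small amounts. Mitochondrial ribosomal proteins had 52 of 69 tested genes (75.4%) lower, against 44.6% of all rows, and 7 higher, with a median of -0.51 and 1 gene at 2-fold (2 without mutant replicate 1 or wild type replicate 2), mRpL27 (2.11-fold lower). Span-centred, 37 were lower and 21 higher, with a median of -0.15, and 63 of the 69 lie in the shortest class. Respiratory chain and ATP synthase genes had 32 of 51 (62.7%) lower and 15 higher (72 on the array), but 15 lower and 24 higher when span-centred. Cytosolic ribosomal proteins had 14 of 34 (41.2%) lower, near the share of all rows, and 7 higher (41 on the array). The 14 include RpL24-like, RpLP0-like and RpL7-like, which resemble ribosomal proteins but are not part of the cytosolic ribosome. Span-centred, 3 were lower and 25 higher, so neither this list nor that of the respiratory chain has a settled direction. Proteasome genes had 14 of 26 (53.8%) lower and 7 higher (40 on the array), and 10 lower and 12 higher when span-centred.

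The secretory pathway kept its lower counts. Of 29 genes tested in a list of the endoplasmic reticulum and Golgi (30 on the array), 19 fell and 6 rose (3 without mutant replicate 2 or wild type replicate 2), with a median of -0.42, against 17 lower, 10 higher and a median of -0.38 when span-centred. The list also took in Trap1, a mitochondrial chaperone, which did not pass, at 0.02. Few reached 2-fold. The cargo receptor loj had 8.45 and 8.33 in the mutant, against 9.79 and 9.84 in wild type (2.70-fold lower), and the coat subunit epsilonCOP was 2.12-fold lower. Sec24AB, another coat subunit, ran opposite at 7.75 and 7.68 in the mutant, against 6.23 and 6.20 in wild type (2.83-fold higher).

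Some of the widest changes lay outside the lists. With both genotypes measured, CG15282 was 26.2-fold lower, with 5.82 and 5.86 in the mutant, against 10.60 and 10.51 in wild type, and CG9757 was 22.4-fold lower. gfzf, a zinc finger protein fused to a glutathione transferase, was 12.8-fold lower, and borr, a chromosomal passenger protein of mitosis outside the replication and mitosis list, was 11.7-fold lower. Lst, the peptide hormone limostatin, and Obp44a, an odorant-binding protein, were 9.77-fold and 11.1-fold lower. On the other side CG32237 was 19.9-fold higher, and CG7465 had 11.37 and 11.40 in the mutant, against 7.19 and 7.23 in wild type. Atf3, a bZIP factor of stress and lipid balance, was 7.70-fold higher, with 8.86 and 8.88 in the mutant, against 5.89 and 5.96 in wild type. These genes were picked among called genes whose groups did not overlap, so the lack of overlap follows from the choice. It held for 90.3% of all rows.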

How the data were processed

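RNA of whole stage 16 embryos was measured on 1-colour Affymetrix arrays, 2 for each of 3 genotypes. Trizol extraction and reverse transcription from random primers are recorded per the labels' protocols. The authors deposited 1 log2 value per probe set and array, a scale read from the values, and the submitters' processing notes name GCRMA and MAS5 with no version, role or order. Values ran from a shared floor of 2.27 to 14.1 and were used as deposited. The sources used here give no genome build for the probe sets.

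Of 18952 probe sets, 13647 had 1 gene symbol in the platform annotation, 402 had several, 4720 had none and 183 were controls. Symbols were updated for 13550 through the gene table of Release 6 plus ISO1 MT, and 97 kept theirs. Each gene was represented by its brightest probe set (mean of 6 arrays), and 406 genes had several tested probe sets, 78 of them with opposite directions. A model of 3 group means was fitted by limma 3.58.1 (R 4.3.3), on all 6 arrays and the 8632 tested rows. Its lmFit and its eBayes with the trend option left 3 residual degrees of freedom and a prior of 7.93. P-values are two-sided, adjusted by the Benjamini-Hochberg method over all rows, and called under 0.05. An exact permutation of 2 against 2 arrays cannot go below 0.333 and was not used. The number of arrays limits the precision.

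A group with both arrays under 4 counted as dim. The fold is then "at least" the bright mean against the higher of 4 and the dim mean, but a count at 2-fold uses fitted values. Levels of different genes were not compared. Comparisons of the mutant and of overexpression share the wild type arrays, so overexpression means are given only beside them.

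The comparison and the 49 gene lists were chosen with earlier results of these data known, and some lists share genes. Named genes were grh, ple, vvl, Ddc and kkv, every tested member of lists of up to 9 and the members with the largest changes of longer lists, plus the largest rises and falls. Cdc6, fzr, barr, tud, PCNA, Mcm2, SMC2, RnrL, Dp, thr, Muc91C, and members named for passing the minimum through 1 genotype were added after their values were seen. So were shg, btl, scrib, alrm, Mlp84B, Hsc70-3, mdy, repo, trn, cv-2, Cyp1, Cyp40, RpL24-like, RpLP0-like and RpL7-like. Vmat, ftz-f1, Ald1, Gpdh1, Trap1 and Cpr78Ca were likewise added late. The script was tested on simulated data. Alternatives covered the arrays fitted, trend, filter, normalization, probe sets, a replicate block, a minimum fold and left-out arrays.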

Additional observations from a re-analysis of the deposited data

How the results depend on the processing

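Testing against a log2 change of 0.5 left 1562 rows higher and 1519 lower, by its construction. Without 1 array at a time, 2938 to 3064 rows were higher and 3609 to 3768 lower, 926 to 955 and 593 to 655 of them by at least 2-fold, and the log2 fold change of grh was 1.58 to 1.67. The labels tie arrays of the same replicate number to no shared batch, and the deviations of the replicate 1 arrays correlated at 0.165 between mutant and wild type, 0.136 between mutant and overexpression and 0.245 between wild type and overexpression, with only 2 numbers per group, which is a hint from the data and not a design. With the replicate block, 3218 rows were higher and 3953 lower, and 0 of 196 list counts moved by more than 1.5 times, as against 68 with the minimum change, 61 with span centring and 0 to 11 otherwise. Span centring, chosen after seeing the data, turned the direction of Alp5 to 0.035, Antp to -0.024, RpL39 to 0.018, Vha14-1 to 0.013 and serp to -0.062, a change that follows from its construction. The other alternatives turned none of the 318 named genes counted below. Averaging the probe sets of a gene gave grh a log2 fold change of 0.95. The share of calls that were higher was 44.9%, and 43.8% to 50.7% under the alternatives. Of 318 named genes other than grh, 258 kept direction and call under all of them.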

Other observations

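Genes of patterning signals and of general metabolism moved in both directions. Of 16 tested genes of the Wnt, Hedgehog, Dpp, EGFR and Notch pathways (18 on the array), 10 rose and 6 fell, 3 of the risers and 0 of the fallers by at least 2-fold (1 and 1 span-centred), with a median log2 fold change of 0.49, or 0.20 when span-centred. The ligand dpp had log2 values of 6.62 and 6.82 in the grh mutant, against 5.51 and 5.72 in wild type (2.15-fold higher), and its transducer Mad had 8.34 and 8.52 in the mutant, against 9.35 and 9.41 in wild type (1.93-fold lower). aop, a repressor that acts below the EGF receptor, was 2.07-fold higher, and smo and ci of the Hedgehog pathway were both 1.56-fold higher. tkv, a receptor of Dpp, had probe sets in opposite directions. Of 3 tested homeotic genes, Dfd was 1.66-fold higher, Antp passed at 0.29 but not without 1 of 3 arrays in turn, and Scr did not pass, at 0.16.

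Of 12 genes tested in the glycolysis list, 4 rose and 6 fell, and 1 rose without mutant replicate 1 and 2 without mutant replicate 2 or wild type replicate 2. The list also took in Pgm1, among the fallers, and Gpdh1, among the risers, which are not steps of glycolysis. Ald1, counted lower at -0.36 on the log2 scale, had a second probe set that was higher by 0.34. Pgm1 had 9.15 and 9.10 in the mutant, against 10.54 and 10.43 in wild type (2.56-fold lower). Of 20 tested subunits of the vacuolar proton pump (31 on the array), 8 rose and 10 fell, against 8 and 5 when span-centred, and Vha44 was 2.32-fold higher. Of 7 tested alkaline phosphatases (12 on the array), 1 (Alp1, not called without either mutant array or wild type replicate 2) rose and 3 fell, none by 2-fold, and Alp9, Alp10 and Alp1 passed the minimum only through the overexpression arrays. Alp9 averaged 10.45 in grh overexpression and was under 4 on every array of the mutant and of wild type.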
